A study of Astyanax mexicanus with 12 samples.

Results

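Liver RNA was compared between surface fish, the river-dwelling form of the Mexican tetra Astyanax mexicanus, and Tinaja cavefish, a blind cave form, at 5 and 7 days post-fertilization (dpf). The genes described here were lower at 7 than at 5 dpf in surface fish and higher at 7 than at 5 dpf in Tinaja. Reads were counted per gene in 12 libraries, 3 for each morph and age, and each library pooled the livers of 40 larvae. The study describes the larvae at 5 dpf as fed and those at 7 dpf as fasted, so an effect of age and an effect of fasting cannot be told apart. It also cites that visible yolk lasts longer in cavefish than in surface fish. At 5 dpf the morphs may thus differ in yolk, which cannot be told apart from other differences between them. No transgene or drug is named for these fish. The labels name the tissue as liver, and hepatocytes, bile duct, blood and immune cells were not separated. In such bulk samples fewer cells of a type and less RNA per cell cannot be told apart.

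Members were chosen by their own age changes. The level of each gene was taken as log2 CPM, the log2 of counts scaled to reads per M (CPM), with libraries scaled by trimmed means (TMM) and a prior count of 2 added. S is the mean of the surface libraries at 7 dpf minus that at 5 dpf, and T the same difference in Tinaja. Of 17540 genes that passed edgeR's filter on low counts, 478 had a mean log2 CPM under 10, an S of at most -0.6 and a T of at least 0.6. The 100 of these with the largest smaller change, the lesser of -S and T, are the members. The filter asks for reads in as many libraries as a group holds, so a gene can pass through the groups in which it is high. The last member had an S of -1.56 and a T of 0.99, and the first gene left out had -0.99 and 1.08.

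A fish larva first lives on maternal yolk, and its liver takes up and exports yolk lipid while it starts to make plasma proteins. When the yolk is used up and no food follows, a vertebrate liver turns to burning fatty acids, to making glucose from other sources and to autophagy, while growth slows. Cavefish live where food is scarce for long periods and are known to resist starvation. The count table does not pair its Ensembl identifiers with gene names, and 0 of 27420 identifiers matched the RefSeq gene table at hand. The members are therefore described by their levels, groups and libraries, and the marker and pathway lists, the check of the tissue label and all sequences were not analysed here.

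Before any result, a few facts of the libraries bear on the members. Total counts in genes ran from 10.6 to 23.6 M reads, and 1 CPM stood for 13.1 to 21.4 reads. Tinaja 7 dpf replicate 1 had the lowest TMM factor, 0.683, and surface 5 dpf replicate 1 the highest, 1.55. Some reads aligned but were assigned to no gene, and they are called reads outside genes below. They can include reads in introns or on the strand that was not counted. In surface fish they took 30.7% ± 3.59 of all reads at 5 dpf and 21.7% ± 0.924 at 7 dpf. In Tinaja they took 24.04% ± 5.26 and 25.4% ± 2.14 (SD, n = 3). The study's husbandry methods describe mixing embryos of simultaneous spawnings from different parent tanks. Nothing in the labels says whether the pools came from separate clutches or spawnings, so p-values measure the spread between these pools only.

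Opposite changes with age were the rarer combination in these livers. With the same limits of 0.6 on both changes, 1687 genes were lower at 7 dpf in both morphs and 1061 were higher in both. The mirror image, higher in surface fish and lower in Tinaja, held 202 genes, against the 478 from which the members come.

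The values that chose the members are a description and carry no test. S ran from -3.36 to -0.99 with a median of -1.59, where the median of all tested genes was -0.06. T ran from 0.99 to 3.12 with a median of 1.27, against 0.01 over all tested genes. The changes fitted by edgeR from the counts had the same signs for all 100 members and passed 0.6 in both morphs for 95.

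**Figure D1:**
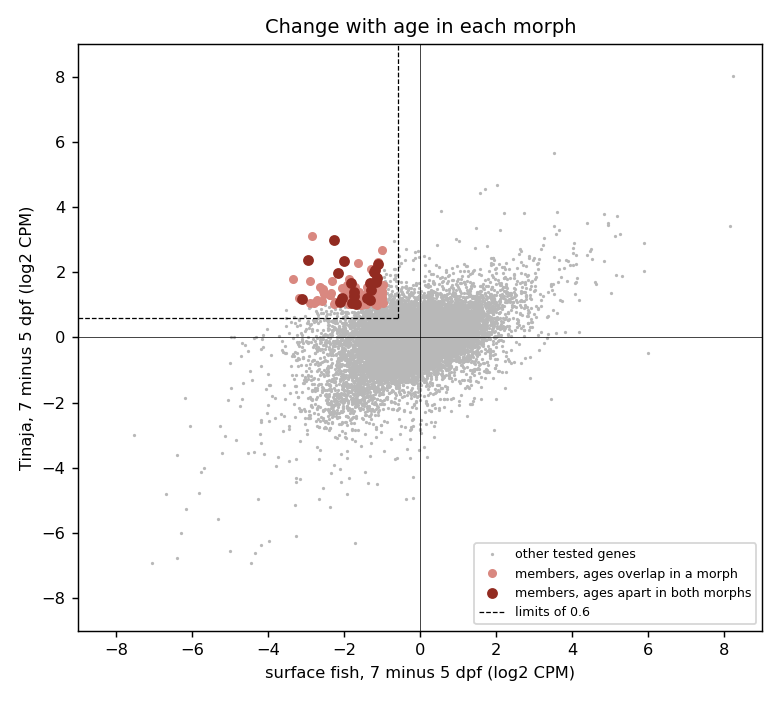
Change with age of each tested gene in surface fish (x axis) and Tinaja (y axis), both as the difference in mean log2 CPM between 7 and 5 dpf. The 100 members sit in the upper left beyond the dashed limits of 0.6, and the 21 dark points are those whose 3 libraries of each age do not overlap in either morph.

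Most members were weakly expressed. Their mean log2 CPM ran from -1.76 to 5.66 with a median of 0.15, where the median of all tested genes was 2.99. Over all 12 libraries a member collected 49 to 27309 reads, with a median of 401.5, and 6 members had fewer than 100 reads. Of the members 43 had a mean log2 CPM under 0, 45 lay between 0 and 3, and 12 at 3 or more. The limits of the rule were met by 7.04% of the tested genes in the weakest class, 3.34% in the middle class and 1.05% in the strongest.

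The spread between replicates was also wider than usual. The SD within groups, pooled over the 4 groups, had a median of 0.97 on the log2 scale over the members and of 0.44 over all tested genes. Among genes of 3 log2 CPM or more the medians were 0.73 for members and 0.36 for all tested genes, so the difference was not limited to weak genes. In the middle class they were 1.099 and 0.50, and in the weakest class 0.96 and 0.81. The rule sets no limit on the spread, and these widths are a description of the genes it chose.

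Non-overlap of the ages separates members whose change was seen in every library. The 3 surface libraries at 7 dpf all lay below the 3 at 5 dpf for 51 members, where 22.2% of all tested genes did so. The 3 Tinaja libraries at 7 dpf all lay above those at 5 dpf for 35 members, against 10.1% of all genes. Both held for 21 members, against 0.428% of all genes. The rule used these same contrasts, so nothing is read from the counts. The 21 had S values of -3.11 to -1.12 and T values of 1.023 to 3.0, their mean log2 CPM ran from -0.96 to 4.87, and 5 of them were among the first 10 members and 5 among the last 50.

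In edgeR's quasi-likelihood test, 38 members passed as lower at 7 dpf in surface fish at an adjusted p under 0.1, and 14.4% of all tested genes did. In Tinaja 14 members passed as higher, against 2.25% of all genes. The 9 genes of the whole table that passed in both directions at once, 0.0513% of all, were all members. The difference of the age effects passed for 3 members, against 0.0342% of all genes. These contrasts are those of the rule. After that choice the counts do not measure how far members stood out of the spread between pools, and they are a description. The counts rested on few libraries. Without surface 5 dpf replicate 1, 7 dpf replicate 2 or 7 dpf replicate 3 the surface count was 14, 18 or 24, where 8.48%, 9.65% and 11.2% of all tested genes passed. In Tinaja the count was 3 or 0 when replicate 1 or 2 at 5 dpf was left out of edgeR's test, and 4 or 5 when replicate 1 or 3 at 7 dpf was. The shares of all genes in these 4 fits were 0.606%, 0.19%, 0.498% and 0.96%. Beside the count of 0, 22 members and 4.81% of all genes were higher at an unadjusted p under 0.05. For the difference of age effects the count was 53 without Tinaja 7 dpf replicate 1 and 28 when 5 dpf replicate 3 was left out, where 4.06% and 1.68% of all genes passed. It was 1 without surface 5 dpf replicate 1 or 2 or surface 7 dpf replicate 1 or 2, where 0.0217% to 0.0281% of all genes passed.

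Identifiers are given for 4 members by a fixed order. ENSAMXG00000010199 and ENSAMXG00000030479 led the members whose ages did not overlap in either morph, and the other two had the extreme morph differences described further on.

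ENSAMXG00000010199 was at 4.47, 2.08 and 3.73 CPM in the surface libraries at 5 dpf and at 0.328, 0.198 and 0.449 CPM at 7 dpf. In Tinaja it was at 0.466, 0.0577 and 0.719 CPM at 5 dpf and at 2.87, 1.69 and 2.22 CPM at 7 dpf. Every library of the high pair of groups, surface at 5 dpf and Tinaja at 7 dpf, lay above every library of the low pair. The means were 3.43 ± 1.22 and 0.325 ± 0.125 CPM in surface fish and 0.414 ± 0.333 and 2.26 ± 0.595 CPM in Tinaja (SD, n = 3), with an S of -2.96 and a T of 2.38. The low groups rest on 16 and 22 reads, the high groups on 163 and 96. Averaged over the ages its level did not differ between the morphs beyond the spread (log2 difference -0.13, SE 0.47, edgeR adjusted p = 0.879).

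ENSAMXG00000030479 was at 5.26, 2.73 and 4.25 CPM in surface fish at 5 dpf and at 1.17, 0.198 and 1.27 CPM at 7 dpf. In Tinaja it was at 0, 0.0577 and 0.299 CPM at 5 dpf and at 0.615, 3.91 and 1.53 CPM at 7 dpf. The ages were apart in each morph, but Tinaja at 7 dpf overlapped with surface fish at both ages. Its S was -2.28 and its T 3.0, and the Tinaja libraries at 5 dpf held 6 reads of it in all. The morph difference averaged over the ages was -1.94 on the log2 scale (SE 0.65, edgeR adjusted p = 0.0555). It did not pass in 7 of the 20 alternative fits, where the adjusted p was at most 0.113 and over all of which it ran from 0.0129. The gene reached the 0.619 CPM of the filter on low counts in 5 surface libraries and 2 Tinaja libraries. It was thus tested through surface fish, the morph in which it was higher on average.

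The member with the largest smaller change of all, at an S of -2.85 and a T of 3.12, shows how 1 library can place a gene in the list. It was at 91.7, 234 and 96.6 CPM in surface fish at 5 dpf and at 12.8, 23.3 and 18.3 CPM at 7 dpf, without overlap. In Tinaja it was at 0, 102 and 480 CPM at 5 dpf and at 63.7, 110 and 572 CPM at 7 dpf. Tinaja 5 dpf replicate 1 had no read of it while replicate 3 had 8017. On the scale of counts the fitted Tinaja change was 0.36 in place of 3.12, the lowest fitted Tinaja change of any member. Such a library without any read beside a library of 20 or more reads in the same group occurred in 8 members, against 1.55% of all tested genes, and 0 of these 8 were among the 21 without overlap. A whole group had no read in 4 members, against 1.09% of all tested genes, 2 in surface fish at 7 dpf and 2 in Tinaja at 5 dpf.

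**Figure D2:**
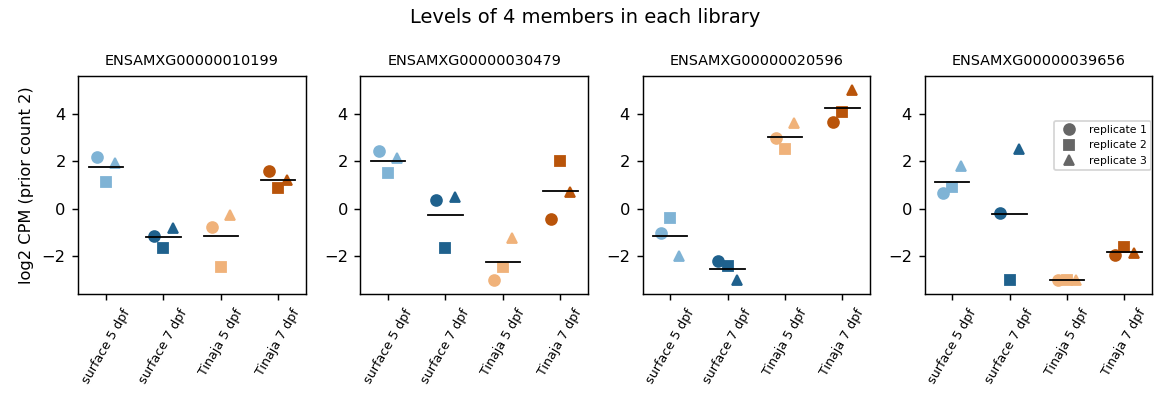
Levels of the 4 members given by identifier, as log2 CPM with a prior count of 2, in each library (symbols mark the replicates) with the mean of each group as a bar. The first pair show the crossing of the morphs without overlap of the ages, the third is higher in all Tinaja libraries, and the fourth is near the floor of -3.01 in Tinaja.

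The rule leaves few orders of the groups. With a negative S and a positive T, only surface fish at 5 dpf or Tinaja at 7 dpf can be highest. Only surface fish at 7 dpf or Tinaja at 5 dpf can be lowest, so the orders are a description. Surface fish at 5 dpf was the highest of the 4 groups for 67 members and Tinaja at 7 dpf for 33. The lowest group was Tinaja at 5 dpf for 55 members and surface fish at 7 dpf for 45. The most common order, with surface fish at 5 dpf highest and Tinaja at 5 dpf lowest, held for 54 members, and Tinaja at 7 dpf highest with surface fish at 7 dpf lowest held for 32. The median member stood at 2.97 CPM in surface fish at 5 dpf, 0.865 at 7 dpf, 0.641 in Tinaja at 5 dpf and 2.22 at 7 dpf. Tinaja was lower than surface fish at 5 dpf and higher at 7 dpf for 66 members, where 19.1% of all tested genes showed this crossing. The median difference of Tinaja from surface fish was -1.96 on the log2 scale at 5 dpf and 1.07 at 7 dpf. S and T, which chose the members, favour the crossing and set the gap between these medians, so both are a description.

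The morph difference averaged over the ages is a measure that the rule did not use, since it adds the ages that S and T subtract. It asks whether the members also differed in level between the morphs. By edgeR's quasi-likelihood test across all 17540 genes 45 members passed at an adjusted p under 0.1, where 27.6% of all genes passed. Of these 45 members 18 were higher in Tinaja, against 15.1% of all genes, and 27 were lower, against 12.6%. At an unadjusted p under 0.05 the numbers were 51 members and 34.2% of all genes. Over all 100 members the median log2 difference was -0.54, and over all tested genes -0.01. The filter on low counts bears on this count, since a gene can pass it through the morph in which it is high. Its level of 0.619 CPM was reached in at least 3 libraries of each morph by 62 members, of Tinaja only by 10 and of surface fish only by 24. Of the 62 members 23 passed the morph test, against 24.7% of the tested genes of that kind. Of the 10 members 7 passed, all higher in Tinaja, against 66.2% of such genes, and of the 24 members 14 passed, all lower, against 50.6%.

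**Figure D3:**
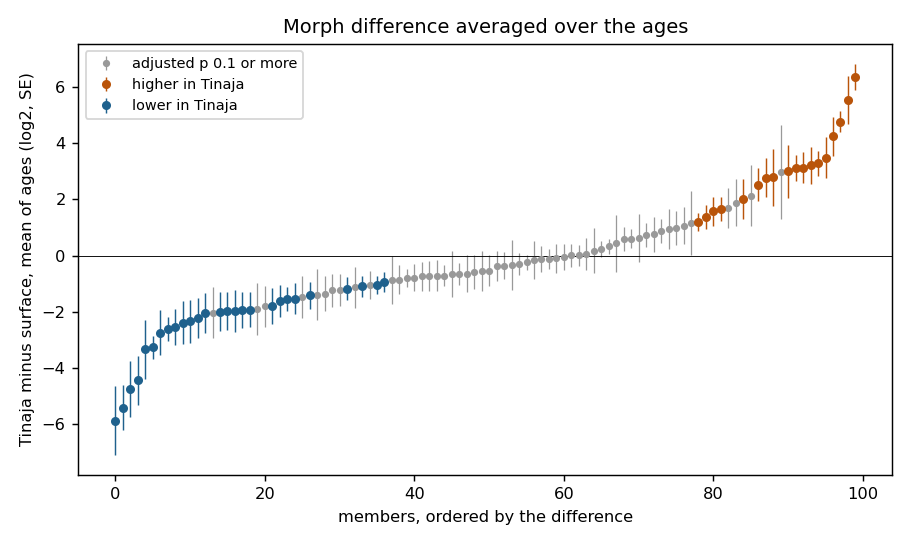
Morph difference averaged over the ages for the 100 members, as Tinaja minus surface fish on the log2 scale with its SE, ordered by size. The 18 members that passed as higher in Tinaja lie at 1.19 or above and the 27 that passed as lower at -0.95 or below, and points of members with a group without reads depend on the prior count and give no fold.

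By level, 21 of the 43 weakest members passed this test, 20 of the 45 in the middle class and 4 of the 12 strongest. The shares, 48.8%, 44.4% and 33.3%, stood beside 36.9%, 28.2% and 24.6% of all tested genes in those classes. Leaving out each library in turn kept the number of members higher in Tinaja between 15 and 21. The number of lower members was 9 without surface 5 dpf replicate 1 and also 9 without surface 7 dpf replicate 1. In Tinaja, leaving out 5 dpf replicate 1 gave 13 and leaving out 7 dpf replicate 3 gave 12. In these 4 fits 23.97%, 21.3%, 20.6% and 20.9% of all genes passed in either direction, in place of 27.6%. All genes were not counted by direction in them, so the counts are a description. Of the 45 members, 20 passed with the same sign in all 20 alternative fits, 12 of them higher and 8 lower in Tinaja.

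ENSAMXG00000020596 had the largest difference upward. It was at 7.86, 5.54 and 12.2 CPM in Tinaja at 5 dpf and at 12.3, 16.6 and 32.2 CPM at 7 dpf. In surface fish it was at 0.367, 0.65 and 0.129 CPM at 5 dpf and at 0.0936, 0.0661 and 0 CPM at 7 dpf. All Tinaja libraries lay above all surface libraries, which held 21 reads against 1299. The log2 difference averaged over the ages was 6.35 (SE 0.47, edgeR adjusted p = 9.4e-06, over the alternatives 1.11e-26 to 0.00033). The pooled rates gave a ratio of 62.6 with an exact 95% counting interval of 40.8 to 102. This interval covers counting error only and leaves out the spread between pools. It reached the level of the low-count filter in 6 Tinaja libraries and 1 surface library, so it was tested through Tinaja. Its age change in surface fish rests on 18 reads at 5 dpf and 3 at 7 dpf. In all, 4 members had every Tinaja library above every surface library, against 3.58% of all tested genes, and 1 had every Tinaja library below, against 2.18%.

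ENSAMXG00000039656 had the largest difference downward. It was at 1.47, 1.75 and 3.41 CPM in surface fish at 5 dpf and at 0.749, 0 and 5.53 CPM at 7 dpf. In Tinaja it had no read at 5 dpf and 7 reads over the libraries at 7 dpf, at 0.137, 0.202 and 0.153 CPM. The surface ages overlapped widely, and without surface 7 dpf replicate 2, the library at 0, S turned from -1.37 to 0.0106. With all libraries the surface means were 2.21 CPM at 5 dpf and 2.09 CPM at 7 dpf. On the scale of counts the fitted surface change was -0.096, the smallest in size of any member. The reads of all ages, 194 in surface fish and 7 in Tinaja, gave a ratio of 27.4 with an exact 95% counting interval of 13.0 to 69.0, which covers counting error only. The morph difference passed (edgeR adjusted p = 0.00986, over the alternatives 2.63e-06 to 0.0473), and its fitted fold change, drawn in the plot of morph differences, is not given as a value because a group without reads makes it depend on the prior count. The gene reached the level of the low-count filter in 5 surface libraries and 0 Tinaja libraries, so it was tested only because it was high in surface fish.

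The members as a whole took a small part of the reads. Their summed share of the counts in genes was 0.193%, 0.0949% and 0.0818% in surface fish at 5 dpf and 0.0265%, 0.0178% and 0.0135% at 7 dpf. In Tinaja it was 0.0269%, 0.0227% and 0.103% at 5 dpf and 0.0584%, 0.0868% and 0.141% at 7 dpf. The surface ages were apart, while Tinaja 5 dpf replicate 3 stood above replicates 1 and 2 of Tinaja at 7 dpf. Of the summed reads 22.7% came from the first-ranked member and 33.5% from the 3 most abundant. Without these 3 the share in Tinaja was 0.0112% to 0.0352% at 5 dpf and 0.0409% to 0.0688% at 7 dpf, and the ages no longer overlapped. The members were chosen by their age changes, so the order of the ages in these shares is a description.

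**Figure D4:**
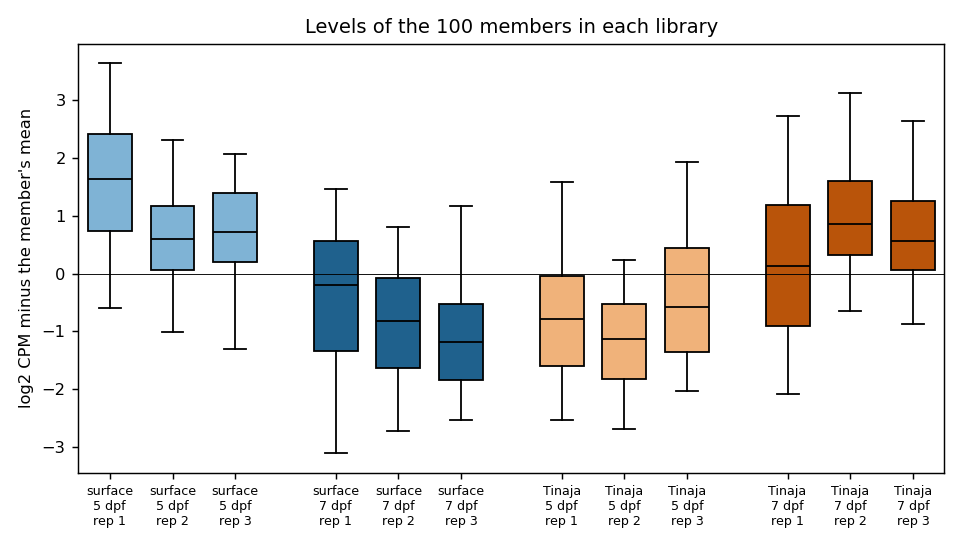
Levels of the 100 members in each library, as log2 CPM minus the member's own mean over all libraries, with the box from the first to the third quartile, the median as a line and whiskers at the 5th and 95th percentile. Surface 5 dpf replicate 1 stands above the other libraries of its group, and the box of Tinaja 7 dpf replicate 1 reaches lower than those of replicates 2 and 3.

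Single libraries stood out within their groups. Surface 5 dpf replicate 1 was above both other libraries of its group for 69 members, against 37.6% of all tested genes, and Tinaja 5 dpf replicate 3 for 54, against 37.7%. Surface 7 dpf replicate 1 was the highest for 55 members, against 30.5%. Tinaja 7 dpf replicate 1 was below both others for 59 members, against 43.1%, and Tinaja 5 dpf replicate 2 for 54, against 33.9%. In Tinaja 7 dpf replicate 1 members exceeded the mean at 5 dpf in 80 cases, by a median of 0.87, while replicates 2 and 3 did so in 98 and 94. Without replicate 1 of that group, on the same scaling, the median T was 1.58 and 4 members were under the limit. These libraries entered T, which chose the members, and all genes were not counted in this way. The values against the mean at 5 dpf are therefore a description.

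The deviations named above went along with the share of reads outside genes, those aligned but assigned to no gene. Others did not. Tinaja 7 dpf replicate 2, in the middle of its group by this share, was above both others for 48 members, against 27.4% of all tested genes. Surface 5 dpf replicate 2, also in the middle of its group, was below both others for 50 members, against 26.3%. In each of the 4 groups the 3 libraries had the same order by this share and by the members' summed share. The summed share is not scaled by TMM, and this order was not counted for all tested genes. It is therefore a description and not a trait shown for the members alone. At 5 dpf the surface libraries had 34.3%, 30.5% and 27.2% of reads outside genes, and the Tinaja libraries 22.2%, 19.9% and 30.0%. At 7 dpf the values were 22.7%, 21.3% and 21.004% in surface fish and 23.1%, 25.6% and 27.4% in Tinaja. The rule used group means and not differences within groups, but a single library that stands out can move both. After the group means were removed, log2 CPM correlated positively with this share over the 12 libraries for 82 members, with a median of 0.40, against 51.2% of all tested genes and a median of 0.03. Among all genes with a mean log2 CPM under 0 the share was 67.3%, and between 0 and 3 it was 61.3%. Of the 478 genes that met the limits of the rule 87.7% were positive, with a median of 0.49. For the 202 genes of the mirror image 43.1% were positive, with a median of -0.10. These correlations describe the same 12 libraries and genes that are not independent of each other. Of the 21 members without overlap 20 had a positive value. The share of unaligned reads gave similar values, positive for 76 members with a median of 0.42, against 52.5% of all tested genes and a median of 0.04. Among all genes with a mean log2 CPM under 0 it was positive for 71.1%, and between 0 and 3 for 63.4%.

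**Figure D5:**
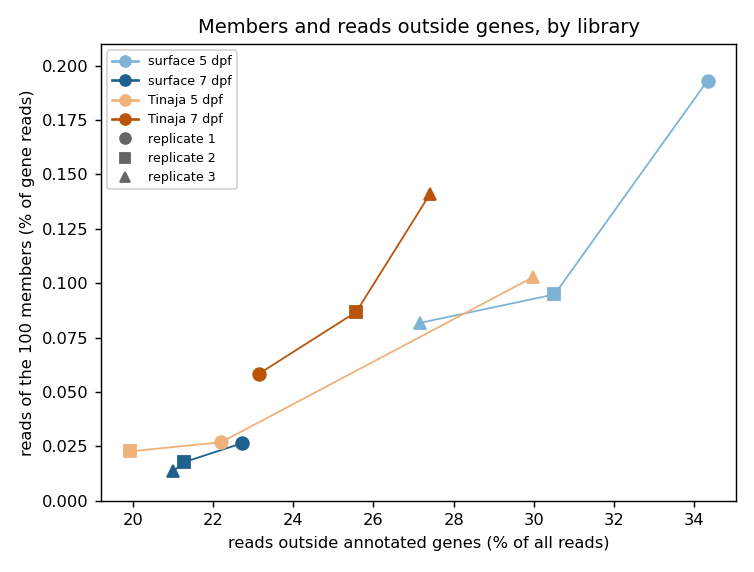
Summed reads of the 100 members, in % of the reads in genes, against reads aligned but assigned to no gene, in % of all reads, in the 12 libraries. Lines join the libraries of a group in order of the x axis. Each line rises, and surface 5 dpf replicate 1 is highest on both axes, at 34.3% and 0.193%. The summed reads are not scaled by TMM, and no such lines are drawn for other genes.

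The group mean of that share was 30.7% at 5 dpf and 21.7% at 7 dpf in surface fish, where the members' mean share was 0.123% and 0.0192%. In Tinaja it was 24.04% and 25.4%, where the members' mean share was 0.0508% and 0.0954%. In surface fish the share of reads outside genes was at least 27.2% at 5 dpf and at most 22.7% at 7 dpf. An adjustment for this share can thus hardly be told apart from one for age in surface fish. In Tinaja the ages overlapped in it. With log2 CPM adjusted for the share of reads outside genes before the rule was applied, 235 genes met the limits, and 45 of the 100 members were among the first 100 again. With the share as a covariate in edgeR 2 members passed as lower at 7 dpf in surface fish, in place of 38, while the share of all tested genes that did so was 5.76% in place of 14.4%. In Tinaja the 14 members that had passed as higher all passed again, where 3.77% of all genes passed in place of 2.25%. For the averaged morph difference 42 members passed in that fit, 37 of the 45 among them, while the share of all genes was 34.1% in place of 27.6%.

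The same measure was also read in libraries whose changes the choice did not use. The low-count filter and the TMM factors still came from all 12 libraries, so these readings are not wholly apart from the selection. Members were chosen again by the same rule from the 8 libraries of the other replicate numbers, and their changes were then read in the 4 libraries held out. The replicate numbers name libraries, and no label says whether they pair them. With replicate 1 held out, 95 of the 100 newly chosen genes were lower at 7 dpf in surface fish but 32 higher in Tinaja, with medians of -1.79 and -0.51. With replicate 2 held out 66 were lower in surface fish and 67 higher in Tinaja, with medians of -0.65 and 0.75. With replicate 3 held out the counts were 83 and 55 and the medians -1.14 and 0.06. Both directions together held for 31, 42 and 43 genes, where 18.2%, 23.8% and 22.1% of all tested genes did so in the same libraries. These shares are not matched to the level and spread of the chosen genes, so the counts are a description.

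Of all tested genes 52.1%, 50.5% and 53.9% were lower in surface fish in these held-out libraries, and 48.0%, 50.3% and 51.8% were higher in Tinaja. The Tinaja count of the chosen genes was thus under that of all genes with replicate 1 held out, above it with replicate 2 and close to it with replicate 3. The newly chosen medians had been -1.73, -1.59 and -1.95 in surface fish and 1.63, 1.37 and 1.52 in Tinaja in the libraries used for the choice. Of the genes chosen in these ways 44, 39 and 46 were among the 100 members. With a single library left out the overlap was 51 to 78, the lowest without Tinaja 7 dpf replicate 1, followed by 54 for Tinaja 5 dpf replicate 3. Of 98 genes chosen without Tinaja 7 dpf replicate 1 and also tested with all libraries, 36 were higher in that library than the Tinaja mean at 5 dpf, with a median of -0.56, where 47.1% of all tested genes were higher, with a median of -0.06. For the other 11 libraries left out in turn, 53 to 91 genes of 89 to 97 lay on the side of the rule, and 48.1% to 54.0% of all tested genes did. In these single-library counts each left-out library was set against the mean of the other age, whose libraries had helped choose the genes. These counts are therefore not apart from the selection and are a description.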

How the data were processed

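Polyadenylated RNA of pooled larval livers was sequenced as strand-specific single reads of 75 bases. Per the labels and the study's methods the authors aligned reads with STAR 2.7.3a to astMex_2.0 and the gene models of Ensembl 102, and their notes also list RSEM 1.3.0. The authors deposited raw read counts per gene together with STAR's summary lines. No source used here says which strand was counted, so overlapping antisense genes are uncertain. Reads at several places (6.19% to 10.7%) were set aside, which can lower near-identical paralogues. Ambiguous reads took 0.914% to 2.07% and unaligned reads 3.9% to 9.63%. These summary lines entered neither library sizes nor tests.

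Analysis used edgeR 4.0.16, limma 3.58.1 and DESeq2 1.42.0 in R 4.3.3. All 12 libraries entered a single quasi-likelihood fit with TMM factors, robust dispersions and 8 residual degrees of freedom. The p-values were adjusted by Benjamini-Hochberg over 17540 genes, at the study's false discovery rate of 0.1. The limit on fold change that the study also set was not applied. SEs come from the F statistics. Shares of all tested genes stand beside counts of members. Replicates differed by a chi-square per gene of 25.8 to 141, so no library is a copy. The averaged morph difference and the limits of the rule were checked on simulated data, and the other statistics were not. No result of this check is given here, and it is not taken to cover low levels, where most members lay. Of the members 43 had a mean log2 CPM under 0 and 45 lay between 0 and 3. Members and lists were chosen with earlier results of these data known. Identifiers shown were, without gene symbols, the 2 leading members whose ages do not overlap in either morph and the members with the extreme averaged morph differences at an adjusted p under 0.1. The first-ranked member was added after its values were seen. Gene lists of pathways and cell types were not used here. Alternatives covered scaling, filters, prior count, limits, tools, a covariate, a replicate block and left-out libraries. Adjusting levels for reads outside genes before the rule, and holding out a replicate number, were chosen after seeing the data.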

Additional observations from a re-analysis of the deposited data

Results flagged for a closer look

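In 21 members every surface library at 7 dpf was below every library at 5 dpf, and every Tinaja library at 7 dpf above every library at 5 dpf, so that the morphs moved in opposite directions throughout. Taken by itself this difference between the morphs was not tested, and the choice of members fixes its direction.

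The difference of age effects passed edgeR's test at an adjusted p under 0.1 for 3 members, all of them among the 21. They ranked 2, 5 and 44, with differences in log2 fold change of 5.8 (SE 0.92), 4.15 (SE 0.58) and 4.44 (SE 0.57). At an unadjusted p under 0.05 the test counted 81 members and 15.8% of all tested genes, and DESeq2 called 53 members and 2.46% of the genes to which it gave an adjusted p. These genes were chosen for this difference, so the values are a description.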

How the results depend on the processing

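The 478 genes that met the limits became 96 with limits of 1 and 235 after adjustment for reads outside genes. They numbered 359 to 969 without single libraries (969 without Tinaja 7 dpf replicate 1, 930 when 5 dpf replicate 3 was left out) and 382 to 789 without a replicate number. Of the 100 members 55 stayed when libraries were scaled by their totals, 45 after the adjustment, 51 to 78 without single libraries and 39 to 46 without a replicate number. Lists rechosen in these last ways held 22 to 40 and 51 to 66 genes without overlap, in place of 21. The 40 came without Tinaja 5 dpf replicate 3, and 35 or 36 without 7 dpf replicate 1 or 2. Fewer libraries must be apart there, and all genes were not counted.

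Members that passed as lower with age in surface fish numbered 14 to 50 without single libraries, where 8.48% and 17.5% of all genes passed at these ends. With library totals they numbered 76, where 41.5% of all genes passed. That scaling moved the median of all genes by age in surface fish to -0.77. With the covariate, whose values did not overlap between the surface ages, 2 members and 5.76% of all genes passed. Members higher in Tinaja numbered 0 to 19 without single libraries, where 0.19% and 2.55% of all genes passed at these ends. With library totals they numbered 9, against 1.47% of all genes. The difference of age effects gave 1 to 53 members without single libraries, where 0.0217% to 0.0281% and 4.06% of all genes passed at these ends. DESeq2 gave 53, against 2.46% of genes. With the covariate in edgeR 0 members and 0 genes passed, where 33 members and 2.96% of all genes were higher at an unadjusted p under 0.05. The averaged morph difference gave 24 to 47 members without single libraries, with 28 when surface 5 dpf replicate 1 was left out, 24 for surface 7 dpf replicate 1 and 29 for Tinaja 7 dpf replicate 3, where 23.97%, 21.3% and 20.9% of all genes passed. The 47 came without Tinaja 7 dpf replicate 1, where 33.1% of all genes passed. Members lower in Tinaja numbered 9 to 30 without single libraries, and all genes were not counted by direction in these fits. The averaged morph difference gave 31 members with a replicate block and 35 in limma-voom, where 22.5% and 24.3% of all genes passed. Of 18 same-numbered pairs 3 deviated together at over 0.1, and 5 of 12 libraries correlated best with their own number. Those 3 pairs joined the ages of the same morph, at 0.24 for surface replicate 1 and 0.18 and 0.41 for Tinaja replicates 1 and 3. The other same-morph pairs were at -0.13 and -0.07 for surface replicates 2 and 3 and 0.04 for Tinaja replicate 2. Whether the numbers pair samples within a morph is not settled by these values. With the replicate block 14 members were lower in Tinaja, and 5 passed for the difference of age effects, against 0.0399% of all genes. In that fit ENSAMXG00000030479 did not pass for the averaged morph difference (edgeR adjusted p = 0.102). Without single libraries the averaged difference of ENSAMXG00000010199, never called, ran from -0.43 to 0.13. S of ENSAMXG00000039656 ran from -2.76 to 0.0106, the latter without surface 7 dpf replicate 2. The summed share at 7 dpf in surface fish was 0.0125% of all reads, against 0.0192% of reads in genes, as the larger denominator sets. The cause of the other changes was not tested. For weak members depth limits the low groups, where 1 CPM is 13.1 to 21.4 reads.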
